A study of Macaca fascicularis with 8 samples.

Results

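The accessible chromatin of the kidney was described from 1 single-cell ATAC-seq library of an adult male cynomolgus monkey (Macaca fascicularis) in normal condition, beside the spleen and liver libraries that carry the same labels for sex, age class and condition. The kidney cells were all barcodes with at least 1000 counts in peaks, which held for 9724 of 9724 kidney barcodes and for 78917 cells across the 8 libraries of the series. The 191454 regions obtained by merging the kidney, spleen and male liver peak lists (overlap of at least 1 bp) comprised 35209 regions with a peak in all 3 libraries, called shared regions here, and the kidney was compared with both organs over these. The groups were kidney (9724 cells), spleen (20019 cells) and male liver (11935 cells), each 1 library of the male animal, and the other 5 libraries (colon, heart, lung, uterus and a second liver) came from the female animal. Organ and library cannot be told apart with 1 library per organ, so no test between organs was made, and the values below are descriptions of these libraries.

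In this assay the Tn5 transposase inserts adapters where DNA in the nucleus is not protected by nucleosomes, and each fragment keeps the barcode of its droplet. Peaks are stretches with many cut ends and often mark promoters and enhancers. The kidney is built mainly of epithelial nephron segments, from the filtering glomerulus to the collecting duct, each with its own set of active enhancers, and it also holds blood vessels, stroma and immune cells. No gene annotation or genome sequence of the build of the peaks was at hand, so regions are given by the positions of the deposited peaks. For the same reason the kidney label could not be checked against marker genes, and no cell type is named.

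The kidney library held 40995276 counts of cut ends, against 59616749 in spleen and 92100566 in male liver, and the median per cell was 3693.5 in kidney, 2276 in spleen and 6818 in male liver. The lowest kidney barcode had 1529 counts. Of the kidney barcodes, 420 occurred in at least 1 of the other 2 libraries as well (268 in spleen and 156 in male liver), and leaving out all barcodes found in several libraries changed the number of regions above both organs from 2761 to 2756. Counts exist only inside a library's own peaks, which covered 77.7 Mb in kidney, 65.5 Mb in spleen and 97.6 Mb in male liver. A region's level was the sum of its counts per 1000000 counts in all peaks of the library (CPM), so it depends on how much of the region the library's peaks cover. Such a level is summed over all cells, so that more cells with an open region and more fragments per cell cannot be told apart. Intervals cover counting error only.

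Of the 103742 regions in which kidney had a peak, 33.9% were shared with both organs. These shared regions held 64.6% of the kidney counts on 41.2 Mb of kidney peaks. The corresponding shares were 74.1% on 38.8 Mb in spleen and 62.7% on 51.1 Mb in male liver. The shared regions were longer than those of kidney alone, with medians of 1174 and 410 bp for the whole merged region.

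Outside the shared regions, kidney had more regions in common with male liver, whose peaks covered more of the genome, than with spleen. Regions with a peak in kidney and male liver only numbered 23410 and held 16.4% of the kidney counts on 15.004 Mb. Those with a peak in kidney and spleen only numbered 4657 and held 2.29% on 2.65 Mb. A further 40466 regions had a peak in kidney alone and held 16.7% of the kidney counts on 18.9 Mb. Per kb of covered peak, kidney had 8.86 CPM in the kidney-only regions, 10.95 CPM in those held with male liver, 8.63 CPM in those held with spleen and 15.7 CPM in the shared regions.

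Over the shared regions, the middle of the kidney distribution lay close to both organs. The median log2 ratio of kidney to spleen was -0.04 (quartiles -0.79 and 0.98), and that of kidney to male liver was 0.11 (quartiles -0.46 and 0.65). Kidney was at least 2-fold above spleen in 8677 shared regions (24.6%), at least 2-fold below it in 7068 (20.1%) and within 2-fold in 55.3%. Against male liver it was at least 2-fold above in 5909 (16.8%), at least 2-fold below in 5090 (14.5%) and within 2-fold in 68.8%. Across the regions, Pearson's r of the log2 levels was 0.57 for kidney with spleen, 0.72 for kidney with male liver and 0.58 for spleen with male liver (35209 regions that share the same libraries, no test). Both comparisons use the same kidney library. The sign of the kidney to spleen median depended on the scaling, since it was 0.16 when the counts in shared regions alone were the denominator.

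Kidney was at least 2-fold above both spleen and male liver in 2761 of the 35209 shared regions (7.84%) and at least 2-fold below both in 2534 (7.2%). At 4-fold, 872 regions lay above both (2.48%) and 1079 below both (3.06%). In 15320 regions (43.5%) kidney was within 2-fold of both organs. Mixed patterns were rarer, with 798 regions (2.27%) above spleen and below male liver and 762 (2.16%) the other way round. Levels under 3 counts were set to 3 counts, which is 0.0732 CPM in kidney, and in 77 shared regions no kidney cell had a count.

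**Figure D1:**
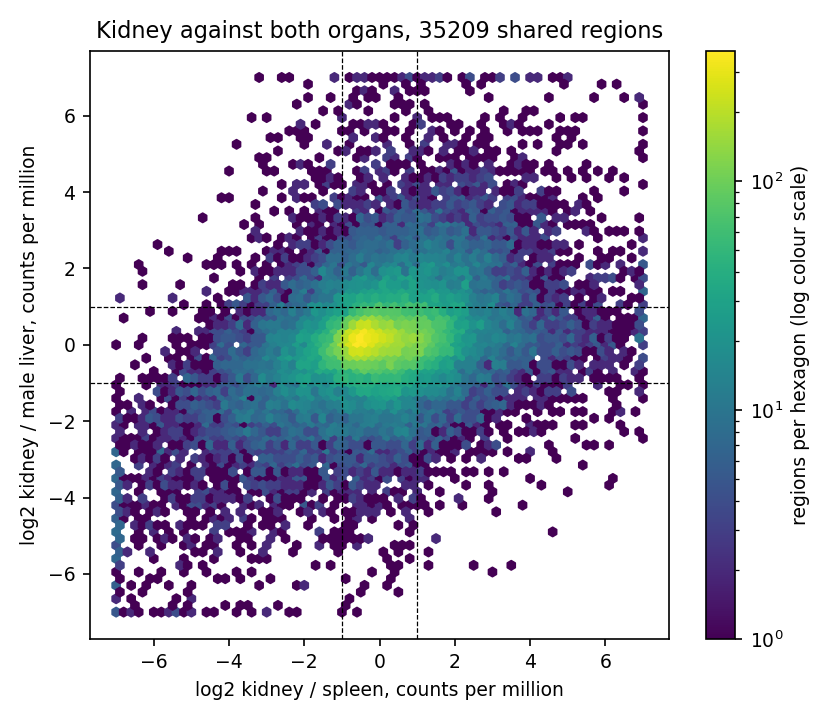
Log2 ratio of kidney to spleen (horizontal axis) and of kidney to male liver (vertical axis) in CPM for the 35209 shared regions, with the colour giving the number of regions per hexagon on a log scale, ratios beyond 7 drawn at the edge and dashed lines at 2-fold. The central square holds the 15320 regions (43.5%) within 2-fold of both organs, the upper right corner the 2761 above both and the lower left corner the 2534 below both.

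These counts moved with the covered length. The log2 ratio of kidney to spleen correlated across regions with the log2 ratio of the covered lengths (Pearson's r 0.89), and that of kidney to male liver likewise (0.88). In the 18147 regions where the kidney peaks were 0.8 to 1.25 times as long as the mean of the other 2 libraries, 211 (1.16%) lay above both organs and 51 (0.281%) below both. Where the kidney peaks were more than 4 times as long, 358 of 370 regions (96.8%) lay above both. Where they were under 0.25 times as long, 927 of 1202 (77.1%) lay below both. The 2761 regions above both had a median covered length of 1160 bp in kidney, 435 bp in spleen and 540 bp in male liver. For the 2534 regions below both these medians were 341, 877 and 840 bp.

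A comparison at like covered length used the 15218 shared regions whose covered lengths in the 3 libraries lay within 1.5 times of each other. Here 298 regions were at least 2-fold above both organs (1.96%) and 127 at least 2-fold below both (0.835%), so that regions above both made up 70.1% of those called, against 52.1% over all shared regions. Counts per covered kb, over all shared regions, gave 1324 regions above both (3.76%) and 648 below both (1.84%). How much of the difference in covered length comes from the chromatin and how much from depth or peak calling was not tested.

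**Figure D2:**
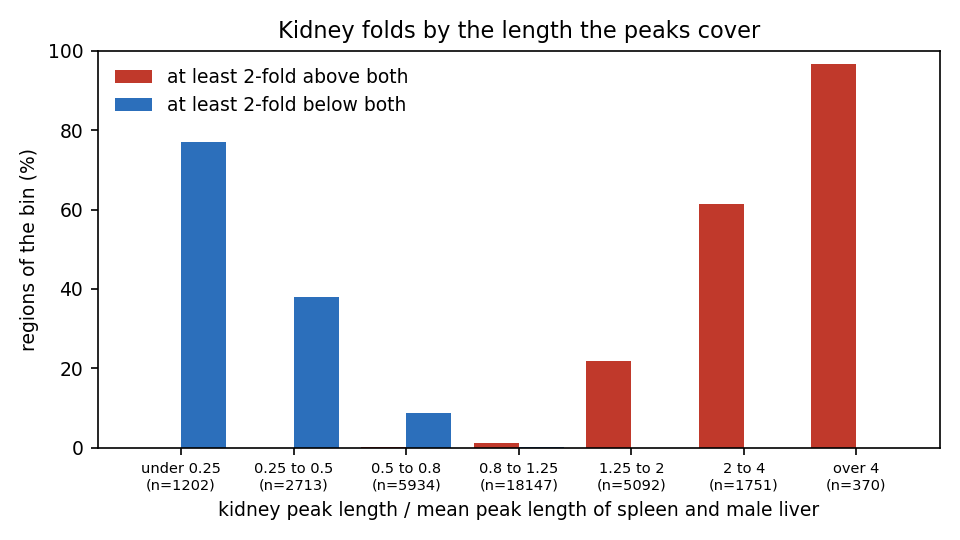
Share of shared regions at least 2-fold above both organs (red) or below both (blue) in bins of the kidney peak length divided by the mean peak length of spleen and male liver, with the number of regions under each bin. The share above both is 1.16% at 0.8 to 1.25 and 96.8% over 4, and the share below both is 77.1% under 0.25.

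In each of the 10 regions with the largest kidney ratios the kidney peaks covered more than those of either organ, and the longest and shortest covered lengths differed by 2.54 to 44.8 times. At chr2:101175053-101186206, which ranked first, kidney had 183 CPM (95% interval 177 to 189), spleen 0.738 CPM (0.463 to 1.12) and male liver 2.05 CPM (1.66 to 2.51). The peaks there covered 11154 bp in kidney, 252 bp in spleen and 932 bp in male liver, and the densities were 16.4, 2.93 and 2.20 CPM per kb. The kidney level was thus 89.3-fold that of male liver by level (interval 72.5 to 110) and a smaller multiple by density. A count was found there in 29.1% of the kidney cells. For the libraries of the female animal, all of each peak that overlapped a named region was counted, also where it reached beyond the region. The chr2 region had 35.6 CPM in lung on 4842 bp and 3.42 CPM or less in colon, heart, uterus and the female liver, on 80 to 1872 bp.

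Region chr11:53127261-53131956 had 87.5 CPM in kidney (83.5 to 91.7), 1.66 CPM in spleen and 0.945 CPM in male liver. The peaks covered 4696, 422 and 356 bp, and the densities were 18.6, 3.94 and 2.65 CPM per kb. Neither heart, uterus nor the female liver had a peak there, and colon and lung had 1.44 and 1.54 CPM on 454 and 333 bp, so that kidney was the highest of the 5 libraries with a peak. The level was higher in another organ at another of the 10 regions. At chr10:80370593-80372270 kidney had 40.1 CPM (37.4 to 42.9) and uterus 49.6 CPM (46.6 to 52.7), whereas spleen and male liver had 0.285 and 0.543 CPM. The peaks covered 1678 bp in kidney, 1419 bp in uterus, 45 bp in spleen and 211 bp in male liver. Per kb, uterus was above kidney there too, with 35.0 against 23.9 CPM. The same held at chr7:158259439-158262064, with 25.4 CPM per kb in uterus against 19.1 in kidney. At chr15:90118232-90120961 kidney had 15.5 CPM per kb, below uterus with 30.4, lung with 16.7 and heart with 15.9. The covered lengths differed least at chr6:93251516-93252553, where kidney had 53.7 CPM on 1038 bp, spleen 1.46 CPM on 409 bp and male liver 1.09 CPM on 490 bp. Kidney was far above both there per kb as well, with 51.7 CPM against 3.57 and 2.22. Over the 10 regions the kidney level ran from 40.1 to 183 CPM, and neither of the other 2 organs exceeded 2.05 CPM in any of them.

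Regions of like covered length gave smaller ratios. Over the 10 highest of them the kidney level ran from 22.8 to 494 CPM, and 4 of the 10, described first because they had the most kidney counts, stood at 99.5 CPM or more. At chr14:108784159-108800398, the region with the third most kidney counts, kidney had 494 CPM (484 to 504), spleen 85.0 CPM (81.7 to 88.4) and male liver 87.1 CPM (84.4 to 89.8), on 13683, 10170 and 14357 bp of peaks. The kidney level was 5.81-fold that of spleen (5.56 to 6.07) and 5.67-fold that of male liver (5.47 to 5.89). In the female animal the same region reached 42.8 CPM in heart and 37.3 CPM in uterus and less in the other 3 libraries, but on short peaks of 1400 to 3087 bp. Per kb, kidney had 36.1 CPM, spleen 8.36 and male liver 6.06. Uterus with 23.0, heart with 17.5, lung with 11.8 and the female liver with 8.51 (28 counts) lay above spleen and male liver, and colon with 4.53 lay below. A count was found in 56.1% of the kidney cells, 11.1% of the spleen cells and 24.0% of the male liver cells, whose depths differ as given above.

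At chr8:144087754-144095375 kidney had 419.6 CPM (411 to 429), spleen 83.3 CPM and male liver 92.6 CPM. Uterus followed with 106 CPM, and 50.4% of the kidney cells had a count. Per kb, kidney had 55.1 CPM, uterus 25.4, spleen 12.9 and male liver 13.6. At chr6:139180776-139188549 the levels were 304 CPM in kidney (297 to 312), 62.7 CPM in spleen and 55.0 CPM in male liver. Heart and the female liver had no peak in that region, and colon, lung and uterus had 3.93 to 6.32 CPM on 281 to 1806 bp, against 7532 bp in kidney, 5967 bp in spleen and 7184 bp in male liver. At chr10:62285968-62288435 kidney had 99.5 CPM (95.3 to 104), spleen 21.6 CPM and male liver 19.0 CPM, and none of the 5 libraries of the female animal had a peak. Over the 10 regions the level in spleen ran from 4.56 to 85.0 CPM and that in male liver from 4.36 to 92.6 CPM. The largest ratio was at chr9:75537267-75538027, with 37.5 CPM in kidney (34.9 to 40.2), 6.04 CPM in spleen and 4.76 CPM in male liver. Kidney was not the highest library in every one of the 10. At chr14:57551744-57552881 kidney had 27.1 CPM on 1138 bp, heart 38.4 CPM on 1339 bp and uterus 33.9 CPM on 1047 bp. Per kb kidney was also lower, with 23.9 CPM against 28.7 in heart and 32.4 in uterus. At chr19:539553-540786 kidney had 24.4 CPM on 1234 bp, lung 37.8 CPM on 3066 bp and heart 36.1 CPM on 2083 bp. Per kb kidney was the higher there, with 19.8 CPM against 12.3 in lung and 17.3 in heart. Without the barcodes found in several libraries, the levels at chr14:108784159-108800398 were 493 CPM in kidney, 84.8 CPM in spleen and 87.2 CPM in male liver. The cells with a count there were 0.946 of the number expected from depth alone in spleen, 0.886 in male liver and 0.932 in kidney. The kidney value lay under 0.950, the 5th percentile over shared regions with at least 10 CPM in kidney. The part of fragments carried over between libraries in the spleen and male liver levels was not tested, and neither the barcodes left out nor these ratios measure it.

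**Figure D3:**
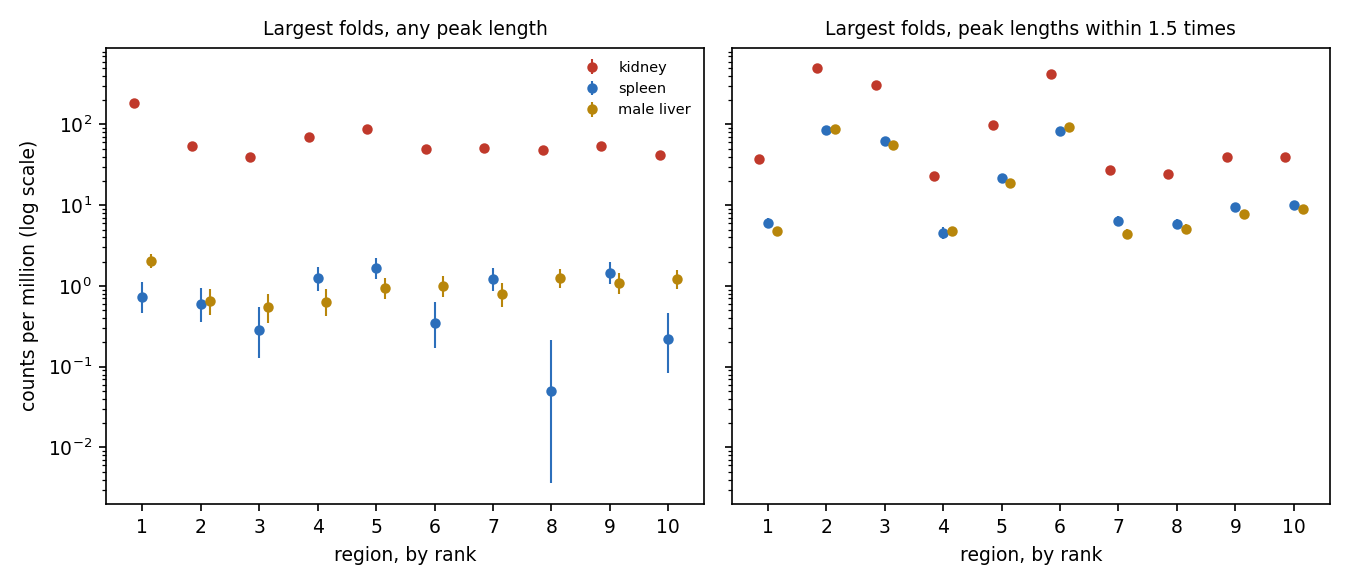
CPM on a log scale in kidney (red), spleen (blue) and male liver (yellow) for the 10 shared regions with the largest kidney ratios (left) and the 10 largest among regions with covered lengths within 1.5 times of each other (right), each against its rank, with exact Poisson 95% intervals as bars, which are hidden by the point where narrow. On the left no point of the other 2 organs exceeds 2.05, and on the right they lie between 4.36 and 92.6, below kidney at 22.8 to 494.

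The 5 regions lowest in kidney rested on very short kidney peaks. At chr6:148461942-148466607 the kidney peak covered 24 bp and held 3 counts, whereas spleen had 152 CPM on 4636 bp and male liver 29.2 CPM on 3397 bp. The kidney peaks of the other 4 regions covered 26 to 65 bp and held 2 to 5 counts. The number of cut ends just outside these peaks is not in the matrix, so the accessibility of the rest of these regions in kidney is not known. Among regions of like covered length, the lowest kidney ratio was at chr16:6724919-6726450, with 4.56 CPM in kidney (3.68 to 5.59), 22.6 CPM in spleen (20.9 to 24.4) and 17.6 CPM in male liver (16.4 to 18.9). Next came chr4:143976861-143978069, with 6.24 CPM in kidney (5.21 to 7.42), 24.6 CPM in spleen and 23.9 CPM in male liver.

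Regions above both organs had neighbours of the same kind more often than the share over all shared regions, and so did regions below both. Of 3988 neighbours within 50 kb of a region above both, 18.7% were themselves above both and 4.16% below both, against 7.84% and 7.2% of all shared regions. Of 3885 neighbours of a region below both, 18.0% were below both and 4.27% above both. The opposite kind made up 166 neighbours in each case, so these shares are not separate observations. Runs of at least 3 neighbouring regions that were all at least 4-fold above both numbered 7. The run with the most kidney counts comprised 4 regions at chr16:47358805-47393385 with a summed level of 339.5 CPM in kidney, 43.9 CPM in spleen and 10.9 CPM in male liver, on 27043, 5605 and 2088 bp of peaks. A run of 4 regions at chr19:496134-540786 had 139.5 CPM in kidney, 19.7 CPM in spleen and 25.1 CPM in male liver, on 7172, 2556 and 4313 bp. A run of 3 regions at chr2:147943400-147964907 had 248 CPM in kidney, 23.8 CPM in spleen and 31.7 CPM in male liver, on 9800, 3148 and 6016 bp.

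The share of regions above both organs ranged from 3.32% on chromosome X to 9.56% on chromosome 16. Chromosome 19 had opposite shifts against the 2 organs, with a median log2 ratio of -0.36 to spleen and 0.34 to male liver over its 1972 shared regions. It held 5.17% of the kidney counts in shared regions, 6.78% of those of spleen and 4.73% of those of male liver. On chromosome X the kidney to spleen median was -0.31 over 752 regions.

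The windows of 2 genes could be placed by the positions that the study prints, on the assumption, which was not checked, that they are in the build of the peaks. EGFL7 encodes a protein secreted by endothelial cells. Its window on chromosome 15 had 102 CPM in kidney (98.1 to 107), 189 CPM in spleen (184 to 194) and 254 CPM in male liver (249.6 to 259). Kidney was the lowest of the 3 also per covered kb, with 5.99 CPM against 9.81 in spleen and 7.20 in male liver. All of each peak that overlapped a window was counted, also where it reached beyond the window. In male liver this took in the region chr15:1766456-1775227, with 67.9 CPM on 8772 bp, most of which lies before the window's start. Most of the kidney counts in the window came from the region chr15:1786167-1801690, where kidney had 60.9 CPM, spleen 73.9 CPM and male liver 115 CPM, on 11024, 9047 and 15524 bp. By level, all 8 shared regions that overlapped the window were lower in kidney than in either organ. Per kb this held for 7 of them, since at chr15:1820232-1823080 kidney had 7.71 CPM per kb against 13.3 in spleen and 6.07 in male liver.

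JCHAIN encodes the chain that joins immunoglobulin monomers in plasma cells. Its window on chromosome 5 had 194 CPM in kidney (188 to 200), 188 CPM in spleen (183 to 193) and 109 CPM in male liver (106 to 112). Per covered kb, kidney with 16.2 CPM lay between male liver with 14.7 and spleen with 18.0. The 5 shared regions in the window did not move as one. At chr5:63545437-63546841 kidney had 10.4 CPM against 34.7 CPM in spleen and 6.06 CPM in male liver, whereas at chr5:63574413-63577595 it was the highest with 68.7 CPM against 53.9 and 51.6.

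Detection among the kidney cells was sparse. The median shared region had a count in 1.70% of the 9724 cells (5th and 95th percentile 0.278% and 12.1%), 12346 regions (35.1%) were detected in under 1% of the cells, and 7 regions in at least 50%. The counts were concentrated, since 4679 regions (13.3% of the shared regions) held 50% of the kidney counts in shared regions and the top 352 held 9.61%. The regions above both organs had a median detection rate of 3.17% and those below both 0.309%, an order that follows from the levels that define them. With every cell thinned to 500 fragments the median rate was 0.411% in kidney, 0.375% in spleen and 0.411% in male liver, against 1.70%, 1.11% and 2.80% without thinning. A thinned kidney cell had a fragment in a median of 310 shared regions, a spleen cell in 358 and a male liver cell in 298. This order is that of the shares of counts in shared regions given above, and the ranges overlapped (5th to 95th percentile 279 to 366 in kidney, 334 to 381 in spleen and 268 to 402 in male liver).

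The region with by far the most kidney counts was chr13:70949185-70961516, at 4291 CPM (4262 to 4319) in kidney, 923 CPM (912 to 934) in spleen and 1800 CPM (1788 to 1813) in male liver. Its covered lengths were nearly equal, at 12332, 12185 and 12313 bp. It was detected in 96.9% of the kidney cells, and in 72.5% after thinning. Across the 8 libraries it ranged from 923 to 4291 CPM, with 4181 CPM in uterus and 3475 CPM in heart, so that kidney and uterus lay close together at the top. Per kb, uterus was the higher of the 2 with 376 against 348 CPM. Over all shared regions kidney had 15.7 CPM per kb. The region next in kidney counts, chr14:8941359-8983848, had 749.9 CPM in kidney, 650.4 CPM in spleen and 776 CPM in male liver, on 37662, 25211 and 42490 bp, and was detected in 71.1% of the kidney cells. Per kb the order differed, with 19.9 CPM in kidney, 25.8 in spleen and 18.3 in male liver. What lies in either region was not looked up, for want of an annotation.

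The spread of a region among the kidney cells was measured against what depth alone gives. The detection ratio, the number of cells with a count divided by the number expected if a region's fragments fell on cells in proportion to each cell's total, had a median of 0.978 over all shared regions. At low detection this ratio stays close to 1 even where fragments are unevenly spread, so it says little of sparse regions. Beyond counting error, the squared coefficient of variation had a median of 0.71 over the 15898 shared regions with at least 10 CPM in kidney and exceeded 1 in 33.0% of them. The median was 0.90 over the 1898 such regions above both organs and 1.51 over the 108 below both. The last number is a small remainder of the 2534 regions below both, the rest of which had fewer than 10 CPM. The squared coefficient of variation is itself noisy at low counts, and its own error was not computed.

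**Figure D4:**
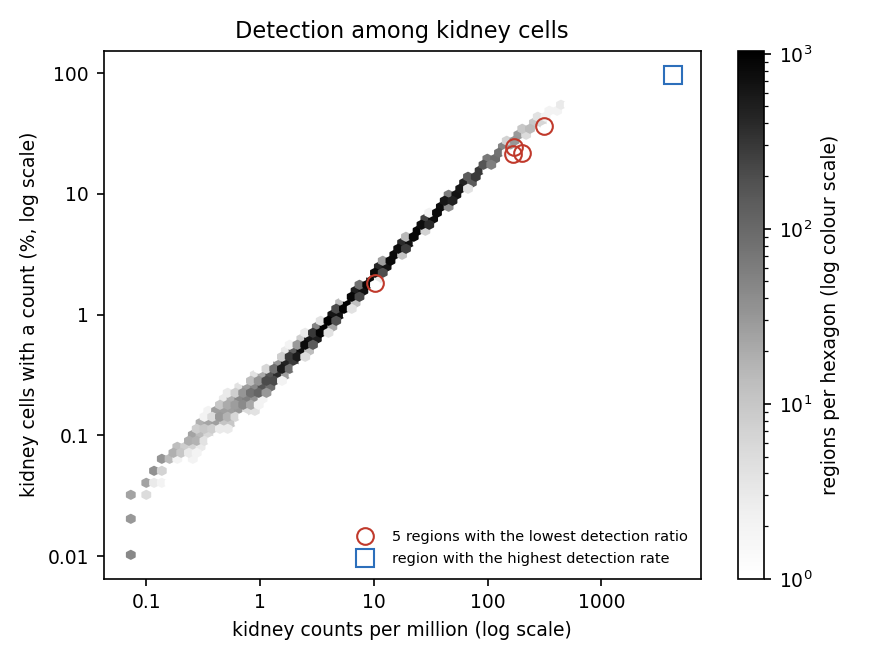
Share of kidney cells with a count (vertical axis, log scale) against the kidney level in CPM (horizontal axis, log scale) for the shared regions, with grey giving the number of regions per hexagon on a log scale. Most regions lie on 1 line, the 5 with the lowest detection ratio (red circles) fall below it, with as few as 0.658 of the expected cells, and the square marks the region detected in 96.9% of the cells.

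Some regions were found in fewer kidney cells than depth alone gives. At chr20:42954969-42971559, which had 201 CPM in kidney, 43.9 CPM in spleen and 58.0 CPM in male liver, 2117 kidney cells had a count where 3219 were expected, a ratio of 0.658. The region chr11:51192789-51208294 was found in 2074 cells where 2773 were expected (0.748). Region chr14:23000278-23002228 was found in 3533 cells where 4396 were expected (0.804), and chr6:135706495-135714522 in 2364 where 2845 were expected (0.831). These regions were found in 21.3% to 36.3% of the kidney cells. Region chr19:46161668-46163821, also among the 5 lowest ratios, was found in 177 cells (1.82%) where 213 were expected (0.831). Kidney was more than 2-fold above both organs in level at the chr20 region, but its peaks covered 16486 bp against 3217 and 4406 bp, and per kb it was the lowest with 12.2 CPM against 13.7 in spleen and 13.2 in male liver. At the chr14 region kidney was above both with 309.8 CPM, against 80.0 CPM in spleen and 132 CPM in male liver, on 1951, 1872 and 1937 bp. Its density was 159 CPM per kb in kidney, 42.8 in spleen and 68.0 in male liver. Over all shared regions the kidney density was 15.7 CPM per kb. At the chr11 and chr6 regions kidney was close to spleen, with 167 against 177 CPM on 13335 and 14572 bp and with 172 against 158 CPM on 7797 and 6092 bp. Per kb both orders turned, to 12.5 against 12.1 CPM and 22.1 against 26.0 CPM.

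The cells that carried these regions were described with clusters found on the kidney peaks outside the shared regions. This gave 7 clusters of 4626, 1329, 1208, 992, 610, 584 and 375 cells, numbered by size and left unnamed. The chr20 region had 1049.7 CPM in cluster 3 and 90.6 CPM in the rest of the kidney cells. The chr11 region had 784 CPM in cluster 5 and 435 CPM in cluster 4, against 87.0 CPM in cluster 1. The chr14 region was highest in cluster 4 with 857 CPM against 257 CPM in the rest, and the chr6 region had 673 CPM in cluster 5 and 597 CPM in cluster 7 against 115 CPM in cluster 1. The chr19 region had 52.4 CPM in cluster 7 and 8.85 CPM in the rest. The region with the most counts, on chromosome 13, took 11005 CPM in cluster 4 and 3222 CPM in cluster 1. The 7 clusters stood in the same order at this region as at the chr14 region, and the cause was not tested.

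The regions with the largest kidney ratios had counts in all 7 clusters. At chr2:101175053-101186206 the level ran from 90.2 CPM in cluster 4 to 265 CPM in cluster 6, and at chr11:53127261-53131956 from 62.6 CPM in cluster 3 to 107 CPM in cluster 2. At chr1:41038977-41040028 clusters 1 and 2 stood out with 62.8 and 67.7 CPM against 20.1 to 39.1 CPM in the other 5. The region chr5:169635495-169637682 had the same order, with 60.1 and 72.5 CPM in clusters 1 and 2 and 12.9 to 27.1 CPM in the others. The like-length regions at chr14:108784159-108800398 and chr8:144087754-144095375 had the opposite order, with 431 and 377 CPM in clusters 1 and 2 against 824 CPM in cluster 4 for the first, and 316 and 288 against 764 CPM for the second. Cluster 7 was the lowest in both, with 274 and 211 CPM. Not all like-length regions did so, since at chr9:75537267-75538027 clusters 1 and 2 were the highest with 49.2 and 45.7 CPM against 9.88 to 23.6 CPM in the others.

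Counted over regions with at least 200 kidney counts, 20.0% of 22516 shared regions were at least 2-fold higher in some cluster than in the rest of the kidney cells. The share was 27.9% of the 2506 regions above both organs and 48.5% of the 305 below both, of which the latter are the few that reached 200 counts. By cluster, 6.53% of the 22516 regions were at least 2-fold higher in cluster 7, the smallest, and 1.51% in cluster 1, the largest. Of the 305 regions below both, 23.9% and 1.97% were. Counting error is larger in small clusters and at low counts, and its part in these shares was not tested. The clusters also differed in how much of their signal lay in shared regions, from 61.5% in cluster 2 and 61.9% in cluster 1 to 71.8% in cluster 4 and 72.1% in cluster 5. The clusters with the larger share had a lower median count, 3199 in cluster 4 and 2436 in cluster 5 against 4111 in cluster 1 and 4285 in cluster 2, and the part of depth in this was not tested. In the EGFL7 window, clusters 1 and 2 had 76.0 and 74.4 CPM, and the other clusters had 137 to 185 CPM. Cluster 5 had 185 CPM (158 to 215), cluster 7 had 181 CPM (151 to 216) and cluster 4 had 165 CPM (147 to 185). In the JCHAIN window all 7 clusters lay between 186 and 225 CPM.

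**Figure D5:**
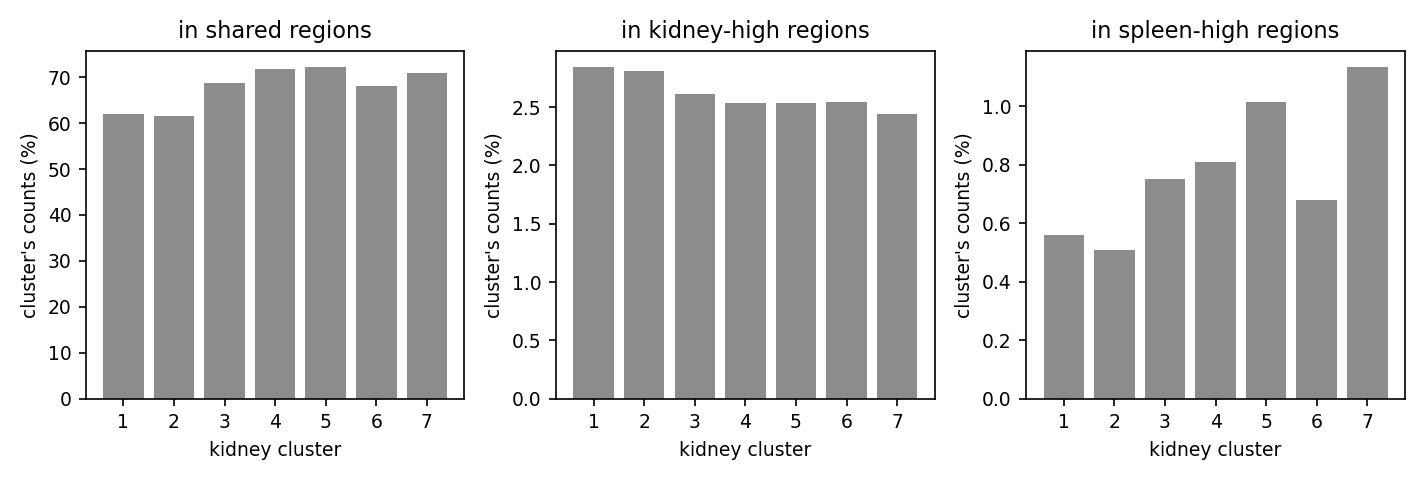
Share of each kidney cluster's counts (%) in the shared regions (left), in the 872 regions where kidney was at least 4-fold above both organs (middle) and in the 1989 regions where spleen was at least 4-fold above kidney and male liver (right), for clusters 1 to 7. The shared share runs from 61.5% to 72.1%, the kidney-high share from 2.44% in cluster 7 to 2.84% in cluster 1, and the spleen-high share from 0.510% in cluster 2 to 1.13% in cluster 7.

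Cell by cell, the 872 regions at least 4-fold above both organs separated the kidney library from the others, as their choice on the summed counts of these cells fixes. They took a median of 2.72% of a kidney cell's counts, 0.287% of a spleen cell's and 0.312% of a male liver cell's. The 5th percentile of the kidney cells was 1.83%. It was reached by 0 of 20019 spleen cells (exact binomial limit 0.0184%, over cells of 1 library) and by 1 of 11935 male liver cells. The limit is no test, since the regions were chosen on these same cells. The 828 regions in which male liver was at least 4-fold above kidney and spleen (2.35% of the shared regions) took a median of 0.503% of a kidney cell's counts and 4.30% of a male liver cell's.

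The share of kidney cells' counts in regions high in spleen was lower than that of spleen cells, as the choice of these regions on the summed counts fixes. The 1989 regions in which spleen was at least 4-fold above kidney and male liver (5.65% of the shared regions) took a median of 0.591% of a kidney cell's counts, 6.98% of a spleen cell's and 0.409% of a male liver cell's. The 5th percentile of the spleen cells was 4.88%, and 11 of 9724 kidney cells reached it (0.113%, exact binomial interval over cells of 1 library 0.0565% to 0.202%, no test). In male liver 693 of 11935 cells did (5.81%, 5.39% to 6.24%). The 11 kidney cells had a median of 1808 counts, against 3693.5 over all kidney cells. The number of kidney cells moved with the regions or cells used, which also set the 5th percentile of the spleen cells. It was 388 at covered lengths within 2 times (percentile at 0.441%), 40 with counts per covered kb (1.34%), 23 in regions with 1 peak per library (2.95%) and 2 at a minimum of 2000 counts per barcode (5.20%). At a lower bound of 2% the numbers were 208 kidney cells (2.14%) and 2252 male liver cells.

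These 208 kidney cells had a median of 2102.5 counts, against 3739 in the other kidney cells. Their median share in shared regions was 83.0%, against 63.6%, and their share in the regions 4-fold above both organs was 1.52%, against 2.73%. The part of depth or of droplets with several cells in this was not tested. They made up 9.33% of cluster 7 and 7.87% of cluster 5 but 1.73% of cluster 1 and 0.376% of cluster 2.

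Against all 8 libraries, the kidney rank could be given for the 19964 regions with a peak in each. Kidney was the highest of the 8 in 1706 of them (8.55%) and the lowest in 3770 (18.9%). Of these regions, 1138 (5.7%) were at least 2-fold above spleen and male liver, and kidney was the highest of all 8 libraries in 572 of the 1138 and at least 2-fold above all 7 others in 173. Uterus exceeded kidney in 418 of the 1138 regions, heart in 298 and lung in 251, whereas colon did in 59 and the female liver in 21. Over all 19964 regions the same libraries exceeded kidney in 76.0%, 70.03%, 71.0%, 56.7% and 53.9% in that order, so uterus, heart and lung were the more often above kidney there too. In the 1138 regions the kidney peaks were longer than those of each of these libraries, by a median log2 ratio from 0.30 for lung to 1.04 for uterus. Spleen and male liver could not exceed kidney there, by the choice of the regions. Of the 931 regions at least 2-fold below both organs (4.66%), kidney was the lowest of the 8 libraries in 738. By the choice of these regions kidney was already below spleen and male liver there. Over all 19964 regions the median log2 ratio of kidney ran from -0.61 against uterus to 0.15 against male liver. The libraries of the female animal differ from kidney in animal and sex as well as in organ, and these cannot be told apart.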

How the data were processed

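Nuclei of 8 organ samples were profiled by single-cell ATAC-seq, and per the labels the authors used Cell Ranger ATAC 1.2.0. For each library the authors deposited peaks, barcodes and a matrix of raw cut-end counts (peak by barcode), not normalized. About 95.5% of the kidney entries were even, so Poisson intervals (exact, 95%) were computed on fragments, that is counts divided by 2 and rounded up. The build of the peaks was not given in the sources used here. Barcodes with at least 1000 counts were kept and no doublets removed. An alternative removed those scored highest against simulated doublets, up to the square of the cell number over 100000 (945 kidney cells, with a median of 7427 counts). Peaks of kidney, spleen and male liver overlapping by at least 1 bp were merged, counts summed and scaled to 1000000 counts in peaks (CPM), and levels under 3 counts set to 3 counts. Kidney cells were clustered on 20938 peaks outside the shared regions (present in at least 1% of cells; binarized, term frequency-inverse document frequency, 30 components without those correlated above 0.75 with depth, 20 neighbours, Leiden at resolution 0.8).

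The regions named were the 10 highest against both organs and the 5 lowest with a mean of at least 10 CPM, the 5 with the most kidney counts, runs of at least 3 regions, and, chosen after seeing the data, the same ranking among regions of like covered length and the 5 with the lowest detection ratio (at least 10 CPM). The regions below 10 CPM entered all counts. The kidney, the comparison and these lists were chosen with earlier results of these data known. The marker genes set for the kidney were not placed, since the gene table at hand is of another assembly. The procedures were tested on simulated data. Python 3.11.15, numpy 2.4.6, scipy 1.17.1, pandas 2.3.3, scikit-learn 1.9.0, leidenalg 0.10.2 and igraph 0.11.9 were used.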

Additional observations from a re-analysis of the deposited data

How the results depend on the processing

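All values rest on 1 library per organ, and covered peak length limits every ratio. No paired analysis was possible because each organ had 1 library. Of 88 values of the comparisons under the alternatives, 35 moved by less than the counting error or, for numbers of regions, by less than 1.5 times, 51 moved further and 2 changed sign, and of 145 values for single regions 22 moved and none changed sign. The changes of sign were the median log2 ratio of kidney to spleen, 0.16 with the counts in shared regions as denominator (kidney to liver 0.067), and that of kidney to liver, -0.12 with the female liver. The causes of the changes were not tested beyond the covered length.

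With the female liver, which held 728 cells and 1978404 counts against 11935 and 92100566 in male liver, 5140 of 36450 regions lay above both organs (14.1%) and 5828 below both (16.0%), the kidney to spleen median was -0.10, 64.0% of the kidney counts lay in shared regions, the median detection rate was 1.64%, and 420 kidney cells reached the spleen range. The lowest level used, 3 counts, is 1.52 CPM in the female liver against 0.0732 CPM in kidney. The part of this floor in the numbers of regions was not tested. At a minimum of 2000 counts the shared share was 64.3%, the kidney to spleen median -0.014, the detection rate 1.83%, the detection ratio 0.978 and the cells in the spleen range 2. Without doublets these were 64.9%, -0.074, 1.56% and 0.977, with 11 cells in the range and 7 clusters. With every cell weighted equally the kidney to liver median was 0.057 and 2697 regions lay above (7.66%) and 2979 below (8.46%). With an overlap of 50% of the shorter peak the shared share was 64.3%. Regions with a mean of at least 10 CPM gave 1032 above and 950 below of 16572 (6.23% and 5.73%), a kidney to spleen median of -0.29, a detection rate of 5.15%, a ratio of 0.973 and 19 cells. Regions with 1 peak per library gave a share of 47.5%, a kidney to liver median of 0.13, a rate of 1.45%, a ratio of 0.979 and 23 cells. At 4-fold, 872 lay above (2.48%) and 1079 below (3.06%).

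The following were chosen after seeing the data. Covered lengths within 1.5 times gave 298 above and 127 below of 15218 (1.96% and 0.835%), a share of 31.5%, medians of -0.17 (spleen) and 0.17 (liver), a rate of 2.03% and a ratio of 0.979. The number of cells in the spleen range could not be given, since the 5th percentile of spleen cells was 0. Lengths within 2 times gave 785 above and 430 below of 21666 (3.62% and 1.98%), a share of 43.3%, medians of -0.13 and 0.16, 1.93%, 0.978 and 388 cells. Counts per covered kb gave 1324 above and 648 below (3.76% and 1.84%), medians of -0.13 and 0.26, and 40 cells. At resolution 0.4 there were 6 clusters and at 1.2 there were 7.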
